A study of Mus musculus with 2 samples.

Results

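MLL, Asxl and leukemia chromatin genes are 10 genes of histone modifying complexes, Kmt2a, Kmt2b, Kmt2c, Kmt2d, Men1, Asxl1, Asxl2, Kdm6a, Dot1l and Nsd1. They were taken by name, as 10 of the 21938 protein-coding genes of the mouse annotation, and their promoters and surroundings were read from lists of accessible chromatin in hematopoietic stem cells (HSCs). The 1 group, labelled HSC, held 2 biological replicates. Each replicate was an ATAC-seq library made from 50000 primary cells of male C57BL/6J mice that were 5 to 6 weeks old, with no treatment or engineered allele named. ATAC-seq uses the Tn5 transposase to cut and tag accessible DNA, so stretches with many cuts are called as peaks. The replicates have a biosample each but share a donor identifier in the labels, which do not say whether separate animals were used, so the spread between the replicates may be technical.

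The IDR-thresholded lists, which keep peaks whose ranks are reproducible within a library (irreproducible discovery rate), held 25141 intervals in replicate 1 and 24495 in replicate 2. Less strict lists of the same libraries held 62918 and 64843. Each peak carries a signal value given by the authors' peak caller, which is quoted as it stands and as a percentile, the share of intervals of the same list at or below it. Coordinates are those of the replicate 1 peak in mm10. Peak lists hold no read counts, so depth is unknown, and a missing peak means only that none was called at that threshold. In a bulk library, fewer cells with an open site and less opening per cell cannot be told apart. Promoter peaks in both thresholded lists covered 9 of 14 HSC marker genes, among them Meis1, Runx1, Lmo2, Kit and Spi1. They covered 0 of 5 markers each of erythroid, T and granulocyte-monocyte cells, and 42.5% of all protein-coding genes. They also covered 1 of 5 B cell markers (Pax5) and 3 of 5 endothelial and stromal markers (Cdh5, Col1a1 and Pdgfrb). Procr, Slamf1 and Mecom, which also mark HSCs, had no thresholded promoter peak. The HSC markers Tal1 (5.32) and Erg (6.70) had one in replicate 1 alone. So did the erythroid marker Klf1 (8.84) and the T cell marker Lck (7.62). In the less strict lists promoter peaks in both replicates covered 59.5% of all protein-coding genes. There they covered 13 of 14 HSC, 1 of 5 erythroid, 2 of 5 B cell and 1 of 5 T cell markers. Of the granulocyte-monocyte markers 2 of 5 were covered, and of the endothelial and stromal markers 5 of 5. What other cells add to the peaks of the 10 genes was not tested.

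The 4 Kmt2 genes encode the catalytic subunits of MLL complexes, which methylate lysine 4 of histone H3 (H3K4). MLL1 and MLL2, encoded by Kmt2a and Kmt2b, act mainly at promoters and bind menin, the product of Men1, while MLL3 and MLL4, encoded by Kmt2c and Kmt2d, act mainly at enhancers together with the H3K27 demethylase UTX, encoded by Kdm6a. Dot1l encodes the methyltransferase for lysine 79 of histone H3, which MLL fusion proteins draw to their target genes. Asxl1 and Asxl2 encode partners of the deubiquitinase BAP1, which removes ubiquitin from histone H2A, and Nsd1 encodes a methyltransferase that makes dimethyl marks on lysine 36 of histone H3. Rearrangements or mutations of several of these genes recur in human leukemias, and Kmt2a and Men1 are needed for normal blood stem cell function in mice.

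A promoter was taken as 1000 bp either side of any annotated transcription start site (TSS) of the gene, and a gene was called open where a peak overlapped a promoter in each replicate. By the thresholded lists 7 of the 10 genes were open, Kmt2b, Kmt2d, Men1, Kdm6a, Dot1l, Asxl1 and Asxl2, against 42.5% of all protein-coding genes. Kmt2a, Kmt2c and Nsd1 had a promoter peak in replicate 1 alone. In replicate 1 all 10 genes had a promoter peak, against 47.2% of all genes, and in replicate 2 the count was 7, against 45.5%. A peak in a single replicate was thus found at 3 of the 10 genes, against 7.71% of all genes. That share also counts genes with a peak in neither replicate, while all 10 genes had one. Over all genes, 1692 had a peak in a single replicate and 9329 in both. In the less strict lists all 10 genes were open, against 59.5% of all genes, and all 10 also had a promoter peak in the conservative list made from both replicates, where 56.3% of all genes had one. With only the 50% of intervals with the highest signal in each thresholded list, 2 of the 10, Asxl1 and Kdm6a, had a promoter peak in both replicates, against 26.2% of all genes.

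The promoters were open in most cases, but their median signal percentile lay below that of all open genes. Over the 7 open genes the median signal percentile was 60.1 in replicate 1 and 37.9 in replicate 2, against 71.5 and 66.5 over all 9329 open protein-coding genes. The 7 ranged from percentile 10.3 to 92.3 in replicate 1 and from 2.08 to 94.3 in replicate 2. Asxl1 stood at the top of that range in both libraries and Dot1l at the bottom. In the less strict lists, where all 10 genes were open, the medians were nearer, 78.4 in replicate 1 and 70.3 in replicate 2. Over all open genes of those lists they were 82 and 79.7.

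**Figure D1:**
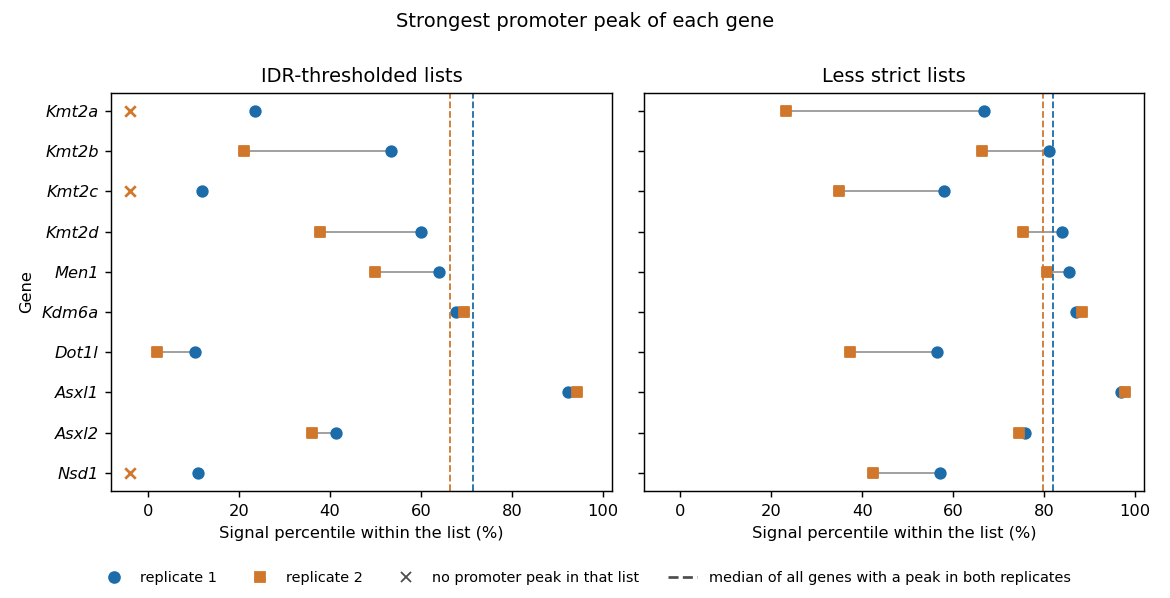
Signal percentile of the strongest promoter peak of each gene in replicate 1 (blue circles) and replicate 2 (orange squares), in the IDR-thresholded lists (left) and the less strict lists (right). A cross marks a list with no promoter peak, and dashed lines mark the median over all genes open in both replicates (71.5 and 66.5 on the left, 82 and 79.7 on the right). Asxl1 lies above these medians in both replicates and both lists, and Kmt2a has the widest gap between replicates on the right.

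Of the promoter-acting MLL genes, Kmt2a had the lower peak signal within the promoter window. Its TSS peak, chr9:44881264-44881686, had a signal of 7.05 in replicate 1, at percentile 23.5 of the thresholded list, with the summit 133 bp upstream of the TSS. In replicate 2 the overlapping peak appeared in the less strict list alone, with a signal of 3.50. The log2 ratio of replicate 2 to replicate 1 was -1.01, and of the 50697 peak pairs of the less strict lists 0.0611% had a ratio as low or lower. Over those pairs the median ratio was 0.15 with an SD of 0.32, so the Kmt2a TSS peak differed by more than the usual spread of such pairs. A pair needs an overlapping peak in both lists. Replicate 1 peaks with no match in replicate 2 are thus left out, and the share does not cover them. In replicate 2 the stronger peaks near Kmt2a lay further upstream, at positions given as negative distances from the TSS. A less strict peak at -915 bp had a signal of 4.78, and a thresholded peak at -1463 bp, outside the promoter window, had a signal of 7.13, against 6.08 in replicate 1. With a promoter window of 2000 bp that upstream peak made Kmt2a open in both replicates. The TSS peak also overlaps the noncoding antisense gene AC061963.1. The sequence around its replicate 1 summit is shown because this is the peak that parts the replicates; it is chr9:44881353-44881529, minus strand, read 5′ to 3′ from the RefSeq GRCm38.p6 genome, with the letters GGGCGG, the core of the GC box that SP and KLF factors bind, in capitals.
Kmt2a promoter: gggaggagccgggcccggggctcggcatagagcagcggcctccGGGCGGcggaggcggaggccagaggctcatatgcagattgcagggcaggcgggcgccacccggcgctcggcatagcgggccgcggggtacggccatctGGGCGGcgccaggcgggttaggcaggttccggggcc

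Kmt2b, the paralog of Kmt2a, was open in both libraries through a peak at chr7:30588718-30589802, with a signal of 8.81 in replicate 1 (percentile 53.5) and 7.88 in replicate 2 (percentile 21.1). Its summits lay 225 and 224 bp upstream of the TSS, and its replicate 1 peak was 1085 bp wide, wider than or equal to 96.9% of the strongest promoter peaks of all genes. In the less strict lists, where every gene has a value, the log2 ratio of Kmt2b over Kmt2a was 0.32 in replicate 1 and 0.72 in replicate 2, where the Kmt2a value is that of the -915 bp peak. Within the promoter window Kmt2b was thus the higher of the pair in both libraries. In replicate 1 the difference equals the SD of 0.32 seen between replicates of a single peak. In replicate 2 the Kmt2a peak at -1463 bp, outside the window, had a signal of 7.13, nearer to the 7.88 of Kmt2b. That SD does not measure how signals differ between separate loci. Men1, whose product tethers both methyltransferases to chromatin, had a peak at chr19:6334696-6335140 with nearly the same signal in both libraries, 9.60 in replicate 1 (percentile 64) and 9.64 in replicate 2 (percentile 49.9). Its summits lay 4 and 10 bp upstream of the TSS, closer than those of the other open genes.

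Of the enhancer-acting MLL genes, Kmt2d had a thresholded promoter peak in both replicates and Kmt2c in replicate 1 alone. Kmt2d, with its peak at chr15:98871919-98872607, had a signal of 9.32 in replicate 1 (percentile 60.1) and 8.84 in replicate 2 (percentile 37.9). Its summits lay 1071 and 1082 bp upstream of the nearest TSS, so the peak reached into the promoter window with its edge. Kmt2d was no longer called open with a window of 500 bp, or where the summit itself had to lie within 1000 bp. Kmt2c, with its peak at chr5:25499000-25499994, had a signal of 6.29 in replicate 1 (percentile 11.9), and in replicate 2 a peak was called in the less strict list alone, with a signal of 5.39. That peak was 995 bp wide in replicate 1 with 4 summits, as many as in 2.23% of genes with a replicate 1 promoter peak, and it covers the start of the noncoding gene 4831440E17Rik, 284 bp from that of Kmt2c on the other strand. The strongest of its summits lay at -951 bp in replicate 1 and at -339 bp in replicate 2. The log2 ratio of Kmt2d over Kmt2c in the less strict lists was 0.57 in replicate 1 and 0.71 in replicate 2. Both exceed the SD of 0.32 between replicates, which is the spread of the same peak and not of separate loci.

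Kdm6a, which lies on the X chromosome and has its peak at chrX:18162181-18162855, had a signal of 9.92 in replicate 1 (percentile 67.7) and 11.12 in replicate 2 (percentile 69.4), below Asxl1 and above the other 8 genes in both libraries. Its summits lay 166 and 152 bp upstream of the TSS. Of the 948 protein-coding genes of the X chromosome 31.5% were open, and of these 28.1% in replicate 1 and 43.8% in replicate 2 had a lower percentile than Kdm6a. Kdm6a thus ranked high among the 10 genes and below the middle of the open X-linked genes. Males carry a single X chromosome, and the percentiles were not adjusted for that.

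Dot1l had the weakest promoter peak among the open genes, chr10:80754893-80755280, with a signal of 6.13 in replicate 1 (percentile 10.3) and 5.61 in replicate 2 (percentile 2.08). The summits lay 167 and 160 bp upstream of its most 5′ TSS. Its replicate 2 peak had a -log10 p of 14.3. A further thresholded peak in replicate 2, with a signal of 5.41 and a -log10 p of 10.9, touched an internal TSS of Dot1l over a coding exon. The strongest replicate 2 peaks of Nsd1, Kmt2c and Kmt2a, with -log10 p of 12.5, 11.9 and 10.3, were in the less strict list alone, so neither the signal nor the p by itself ordered the thresholded calls. These 4 genes had the lowest replicate 1 signals of the set, 6.13 to 7.05. The sequence around the Dot1l summit, chr10:80754939-80755100, plus strand, is shown because the weakest and the strongest of the 7 open promoters share an ETS core, CCGGAAG on either strand, in capitals.
Dot1l promoter: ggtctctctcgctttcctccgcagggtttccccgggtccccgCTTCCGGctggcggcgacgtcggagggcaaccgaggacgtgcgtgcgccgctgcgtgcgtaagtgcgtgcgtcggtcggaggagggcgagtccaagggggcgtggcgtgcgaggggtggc

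Asxl1 had the strongest promoter of the 10 genes. The peak, chr2:153345364-153346072, had a signal of 13.27 in replicate 1 (percentile 92.3) and 14.86 in replicate 2 (percentile 94.3), with summits 156 and 145 bp upstream of the TSS. Asxl2, with its peak at chr12:3426379-3427047, had a signal of 8.03 in replicate 1 (percentile 41.4) and 8.78 in replicate 2 (percentile 36.2), with summits 175 and 128 bp upstream. The log2 ratio of Asxl1 over Asxl2 was 0.73 in replicate 1 and 0.76 in replicate 2. Both exceed the SD of 0.25 between replicates over 19727 thresholded peak pairs, again a spread of the same peak and not of separate loci. Asxl2 had a further thresholded promoter peak inside an intron, with a signal of 6.10 in replicate 1 and 5.60 in replicate 2. Both main summits lie in noncoding exons of antisense genes, 2500004C02Rik at Asxl1 and 1110002L01Rik at Asxl2, whose starts lie 244 and 154 bp downstream of the most 5′ TSS of the coding gene. The summit windows of the pair are shown for comparison, Asxl1 from chr2:153345573-153345773 and Asxl2 from chr12:3426582-3426782, both on the plus strand. Capitals mark GGGCGG, the ETS core CCGGAAG and, in Asxl1 alone, the RUNX letters TGTGGT.
Asxl1 promoter: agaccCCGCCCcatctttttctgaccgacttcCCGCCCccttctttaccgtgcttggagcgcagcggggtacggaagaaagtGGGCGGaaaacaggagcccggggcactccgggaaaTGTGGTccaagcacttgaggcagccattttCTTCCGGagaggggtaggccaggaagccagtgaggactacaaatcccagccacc
Asxl2 promoter: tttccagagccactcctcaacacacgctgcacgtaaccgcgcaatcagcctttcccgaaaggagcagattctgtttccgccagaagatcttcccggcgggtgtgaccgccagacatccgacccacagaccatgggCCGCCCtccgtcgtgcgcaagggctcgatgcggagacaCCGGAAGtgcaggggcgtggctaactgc

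Nsd1 had no peak over its most 5′ TSS. Its promoter peak, chr13:55210884-55211909, had its replicate 1 summit 1749 bp inside the gene, 10 bp upstream of the start of an annotated internal transcript with a retained intron. The signal was 6.21 in replicate 1 (percentile 11.1), and in replicate 2 the peak was in the less strict list alone, with a signal of 5.87. The log2 ratio between the replicates was -0.08, at or above 19.1% of all less strict pairs, so the missing thresholded call went with a small difference in signal. The replicate 1 peak was 1026 bp wide with 4 summits.

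Some features recurred among the promoter peaks. The 10 genes were chosen with earlier results of these data known, and these features were not set out beforehand. The shares are a description and were not tested. All 10 replicate 1 summits lay upstream of the nearest TSS of their gene, as did 77.2% of the 10364 genes with a replicate 1 promoter peak. In 6 of the 10 genes the summit lay 100 to 250 bp upstream, against 16.5% of those genes; these bounds were chosen after the positions were seen. In 4 of the 10, Kmt2a, Kmt2c, Asxl1 and Asxl2, the summit lay within a noncoding gene on the opposite strand, against 7.04% of the same genes. In the 7 open genes the summit moved by 1 to 47 bp between the replicates, with a median of 11 bp, against 12 bp over all genes with overlapping peaks. Kmt2b, Kmt2c, Kmt2d and Nsd1 had 3 or more summits in their replicate 1 peak, against 12.3% of genes.

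All 10 promoters stood above the median of all genes in CpG, a dinucleotide that DNA methylation has depleted from most of the genome. The observed to expected CpG ratio within the promoter ranged from 0.51 for Men1 to 0.95 for Kmt2c, with a median of 0.78 against 0.47 over all genes. Kmt2c, Kdm6a, Dot1l, Asxl1 and Asxl2 stood in the highest decile of all genes, and Men1, in decile 6, was the lowest. Men1 and Nsd1, the latter with a ratio of 0.57 in decile 7, were nearest to the median of all genes. Of the 10969 genes in deciles 6 to 10, 65.1% were open by the thresholded lists and 85.7% by the less strict ones. The 7 of 10 thresholded and 10 of 10 less strict calls therefore stand closer to genes of like CpG content than to all genes. Within the set CpG ratio did not order the signal, since Kmt2c had the highest ratio and one of the 3 lowest replicate 1 signals.

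**Figure D2:**
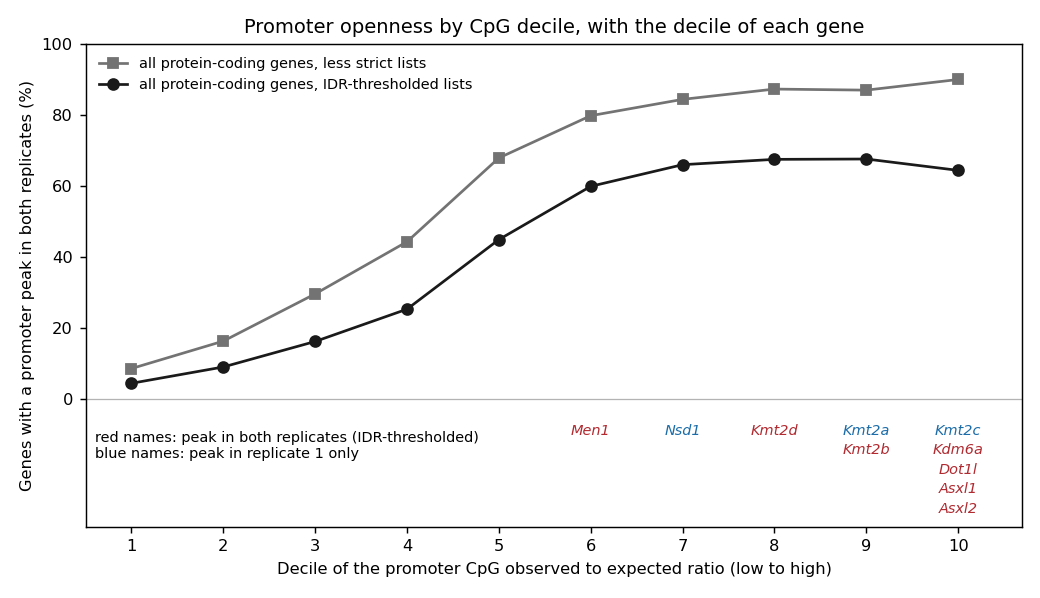
Share of all protein-coding genes with a promoter peak in both replicates, by decile of the promoter CpG observed to expected ratio, for the IDR-thresholded lists (black circles) and the less strict lists (grey squares). Names below the axis line mark the decile of each of the 10 genes, red where open in both thresholded lists and blue where in replicate 1 alone. All 10 stand in deciles 6 to 10, where 65.1% of genes were open by the thresholded lists.

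Letter searches on both strands of the 100 bp either side of each replicate 1 summit gave a GC box core, GGGCGG, in all 10 promoter windows. The share was 58.7% of 8903 shared promoter peaks, those with a summit within 1000 bp of a TSS. The windows of Kmt2a, Kmt2c and Nsd1 are not among the 8903, as their replicate 1 peaks overlapped no thresholded replicate 2 peak. Nor is that of Kmt2d, whose summit lay over 1000 bp from the TSS. The same limit applies to the other promoter shares given here. The ETS core CCGGAAG was present in 3 of 10, Asxl1, Asxl2 and Dot1l, against 16.5%. RUNX letters, TGTGGT or TGCGGT, were present in 2 of 10, Asxl1 and Kmt2c, against 17.1%. CCAAT, the letters bound by NF-Y, was present in the Nsd1 window alone, against 37.6%. The letters searched for PU.1 (GAGGAAGT), GATA factors (AGATAA or TGATAA), NRF1 (GCATGCGC) and YY1 (AAGATGGC) were in none of the 10 windows, and each was present in under 5% of all promoter windows. The E-box CACGTG was in the Kmt2d window and CAGCTG in that of Kmt2b, against 8.01% and 10.6%, and the letters for CRE (TGACGTCA), AP-1 (TGANTCA), CTCF (CCACNAGG), ZBTB33 (CTCGCGAG) and ZNF143 (CTACAATTC) were in none. Of the 10 distal windows described further on, 4 held CCAAT, against 20.4% of 10824 shared distal peaks, 1 held GGGCGG, against 11.2%, and 1 held RUNX letters, against 37.5%. The printed promoter windows of Kmt2a and Dot1l are shortened, which removed the GC box of Dot1l from its line. No matches overlapped in the printed windows, and a match is a description of the letters, not of binding.

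Distal peaks were replicate 1 peaks that overlap a replicate 2 peak, with a summit over 1000 bp from every protein-coding TSS, and within 50 kb of a TSS of the gene or inside it. By the thresholded lists 11 such peaks lay at 7 of the 10 genes, against 45.6% of all genes with any. The mean was 1.1 per gene, against 0.783 over the other protein-coding genes. Per 100 kb of searched span there were 0.655 peaks for the 10 genes and 0.58 for the others, with spans of 167.9 kb and 134.9 kb on average. Kmt2d and Nsd1 had 3 each, Kmt2a, Kmt2b, Kmt2c, Asxl2 and Dot1l had 1 each, and Men1, Asxl1 and Kdm6a had 0. Of those 3, Asxl1 had less strict shared peaks within other genes that were thresholded in replicate 2 alone. That at -46.9 kb lay in an intron of Kif3b (5.29 in replicate 1 and 8.35 in replicate 2). That at 66 kb lay in a coding exon of Nol4l (6.09 and 9.23). Men1 had 1 thresholded in replicate 1 alone at -30 kb, an intergenic site (5.60 and 7.26). Men1 also had 1 thresholded in replicate 2 alone at 14.5 kb, in an intron of Map4k2 (5.65 and 6.29). The stronger of the less strict peaks of Kdm6a lay in its own intron at 92.4 kb (5.29 and 5.74) and was thresholded in neither. In the less strict lists all 10 genes had a shared distal peak, against 75.5% of all genes, and the 34 peaks came to 2.03 per 100 kb, against 1.93.

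**Figure D3:**
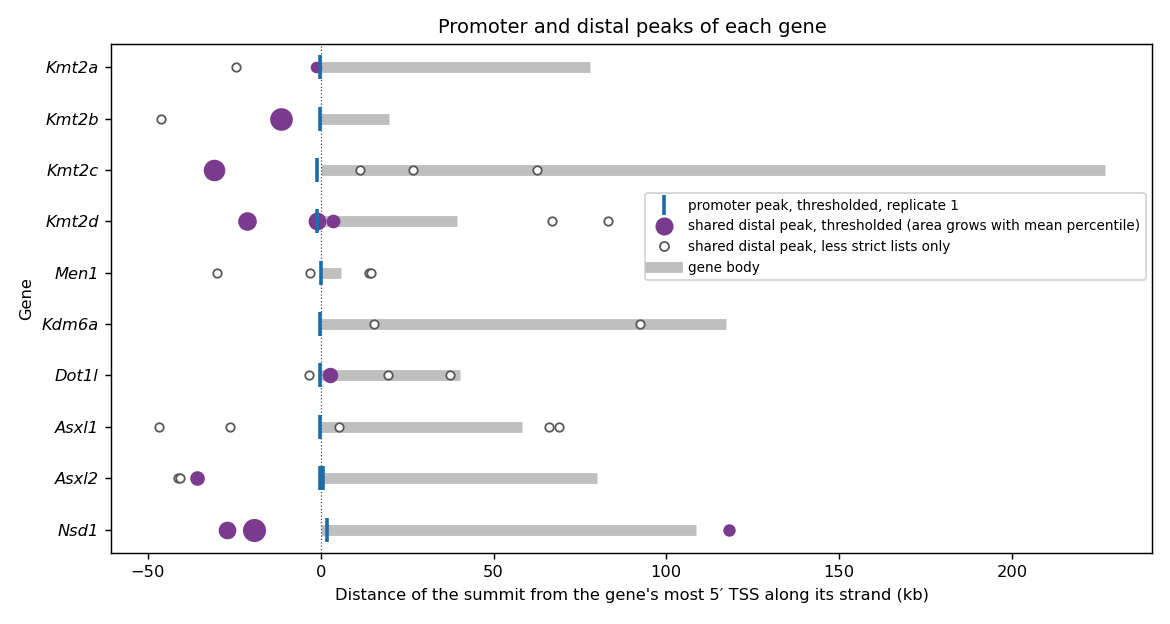
Positions of promoter peaks (blue bars, thresholded, replicate 1), thresholded shared distal peaks (purple, area growing with the mean signal percentile) and shared distal peaks of the less strict lists alone (white circles), in kb from the most 5′ TSS along the strand of each gene, with grey bars for gene bodies. The largest purple marks are Nsd1 at -19.3 kb, Kmt2b at -11.4 kb and Kmt2c at -30.9 kb, all upstream of the gene.

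The strongest distal peak of the set in both replicates lay 19.3 kb upstream of Nsd1, at chr13:55189952-55190725. Its signal was 16.97 in replicate 1 (percentile 99.2) and 14.26 in replicate 2 (percentile 92.1), against 6.21 and 5.87 at the Nsd1 promoter. The site is intergenic, Nsd1 is the nearest protein-coding gene, and Fgfr4, which encodes a fibroblast growth factor receptor, is the other one with a TSS within 50 kb. Its summit window held 15 CpG dinucleotides, as many as the median promoter window, while 7.99% of all 10824 distal windows held 10 or more. The distal windows of Kmt2a (10), Kmt2b (10) and Kmt2c (12) also reached 10, as did that of the Kmt2d peak at -1071 bp (14). Nsd1 had a further intergenic peak at -27 kb with signals of 9.29 and 8.79, nearest to Fgfr4. Another peak lay beyond the 3′ end in an intron of Mxd3, with signals of 6.61 and 7.33 and the core letters CCACNAGG searched for CTCF in its window. Among the 3027 genes with a searched span within 25% of that of Nsd1, 85.9% had fewer than 3 thresholded distal peaks. The window of the -19.3 kb peak, chr13:55190345-55190545, plus strand, is shown as that of the strongest distal peak, with CCAAT on either strand and the E-box CACGTG in capitals.
Nsd1 distal: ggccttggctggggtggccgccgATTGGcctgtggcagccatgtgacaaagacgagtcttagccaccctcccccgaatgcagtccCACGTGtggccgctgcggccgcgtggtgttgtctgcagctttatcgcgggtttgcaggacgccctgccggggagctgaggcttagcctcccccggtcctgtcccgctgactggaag

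The distal peak of Kmt2b lay at -11.4 kb, chr7:30599946-30600326, with signals of 13.35 in replicate 1 (percentile 92.6) and 13.65 in replicate 2 (percentile 89.2), above the 8.81 and 7.88 of its promoter. It lies 1229 bp from Zbtb32, a gene of a zinc finger repressor, and 13 genes have a TSS within 50 kb, so the peak cannot be assigned to Kmt2b alone. The distal peak of Kmt2c lay at -30.9 kb, chr5:25529286-25530412, with signals of 10.76 (percentile 76.3) and 12.77 (percentile 83.9), against 6.29 and 5.39 at its promoter. It was 1127 bp wide, at least as wide as 99.6% of shared distal peaks, and lies 326 bp from the start of the long noncoding RNA gene 1700096K18Rik. Both summit windows held 3 CCAAT letters, as did 0.591% of all distal windows, counting 3 or more. They are shown for that repeat, which was noticed after the windows were read, Kmt2b from chr7:30600038-30600238 and Kmt2c from chr5:25529587-25529787, both on the minus strand. Capitals mark CCAAT on either strand, the RUNX letters TGCGGT in Kmt2b and GGGCGG in Kmt2c.
Kmt2b distal: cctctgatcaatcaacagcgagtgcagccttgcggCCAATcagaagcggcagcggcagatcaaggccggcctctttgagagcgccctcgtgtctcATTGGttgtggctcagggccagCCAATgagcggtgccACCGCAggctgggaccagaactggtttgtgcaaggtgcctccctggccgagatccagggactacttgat
Kmt2c distal: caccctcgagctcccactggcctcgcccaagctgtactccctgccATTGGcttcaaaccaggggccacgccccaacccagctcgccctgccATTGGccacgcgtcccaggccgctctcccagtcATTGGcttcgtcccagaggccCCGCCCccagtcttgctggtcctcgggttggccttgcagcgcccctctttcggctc

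Kmt2d had 3 distal peaks, more than 93.2% of the 11583 genes of like span, and 1 of them is the peak at -1071 bp already counted at its promoter. A peak in its own intron at 3.66 kb had signals of 6.83 and 8.02. The last lay at -21.2 kb, in a UTR of Dhh and an intron of Rhebl1, with signals of 7.36 in replicate 1 and 12.36 in replicate 2. Dot1l had an intronic peak at 2.75 kb with signals of 5.34 in replicate 1 and 10.38 in replicate 2. The peaks at -21.2 kb of Kmt2d and 2.75 kb of Dot1l differed most between the replicates, with log2 ratios of replicate 2 to replicate 1 of 0.75 at Kmt2d and 0.96 at Dot1l. Of all thresholded pairs 0.983% and 0.487% had a ratio as high or higher, while the other 9 distal peaks of the set had ratios between -0.25 and 0.25. Asxl2 had a single distal peak at -35.8 kb, in an intron of Kif3c, with signals of 7.11 and 8.39. In 4 of the 10 genes, Kmt2b, Kmt2c, Dot1l and Nsd1, the strongest less strict distal peak exceeded the strongest promoter peak in both replicates. The same held for 39.6% of the 11462 genes with both kinds of peak, a share near the 40% of the set.

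The partners of these genes were read in 5 further lists, 42 genes in all with Hcfc1 in 2 of them, of which 26 were open by the thresholded lists and 40 by the less strict ones. Of 13 H3K4 methyltransferase partners and paralogs 9 were open, with the highest mean signal percentiles at Cxxc1, the CpG-binding subunit of the SET1 complexes (13.31 in replicate 1 and 13.67 in replicate 2), Ash2l, a core subunit of all MLL complexes (9.11 and 11.95), and Psip1, which links menin to chromatin (9.56 and 10.15). Ncoa6, a subunit of MLL3 and MLL4 complexes, Setd1b, a methyltransferase paralog, and Hcfc1, a host cell factor, lacked a thresholded peak in at least 1 replicate. Kdm6b, the other H3K27 demethylase beside Kdm6a, had no promoter peak in either list of either replicate. Of 9 DOT1L and elongation partners 6 were open, led in mean signal percentile by Ccnt1 (10.72 and 12.50), Mllt1 (11.19 and 10.95) and Ell2 (10.15 and 10.08). The fusion partner gene Mllt3 had a thresholded peak in replicate 1 alone, with a signal of 5.80, and Aff4 and Cdk9 had less strict peaks alone.

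The ASXL and BAP1 partners were the list with the lowest share of thresholded calls, 2 of 8, although all 8 were open in the less strict lists. Ogt, the glycosyltransferase of the BAP1 complex (11.47 and 12.23), and Mbd5 (11.36 and 10.48) were open. Bap1 had a signal of 7.75 in replicate 1 and a less strict peak of 6.56 in replicate 2. Foxk2 and Hcfc1 likewise had a thresholded peak in replicate 1 alone, and Asxl3, Foxk1 and Mbd6 had less strict peaks alone. The catalytic partner Bap1 thus had its thresholded peak in replicate 1 alone, as Kmt2a, Kmt2c and Nsd1 did, while Asxl1 itself was strong in both libraries. Over all protein-coding genes, too, more had a thresholded promoter peak in replicate 1 (10364) than in replicate 2 (9986). Of 4 other H3K36 methyltransferase genes 3 were open, Setd2 (13.21 and 11.62), Ash1l (6.99 and 8.42) and Nsd3 (5.55 and 6.99). Nsd2, the paralog of Nsd1, had only a less strict peak in replicate 1, with a signal of 3.50.

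Of 9 targets of the MLL1 and menin complexes 6 were open, with the highest mean signal percentiles at Hoxa10 (9.83 and 9.93), Eya1 (9.51 and 10.03) and Pbx3 (8.95 and 9.41). Meis1, Cdkn1b and Cdkn2c were also open. Hoxa7 had a thresholded peak in replicate 2 alone, with a signal of 6.16, and Hoxa9, the homeobox target most tied to MLL-rearranged leukemia, had less strict peaks of 5.01 and 4.44. Mecom, which encodes a stem cell transcription factor, had less strict promoter peaks of 3.91 and 5.03 alone. Open shares thus ran from 25% of the ASXL and BAP1 partners to 75% of the other H3K36 methyltransferase genes, beside 70% of the 10 genes and 42.5% of all genes. The lists are short, and no list was tested against another.

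**Figure D4:**
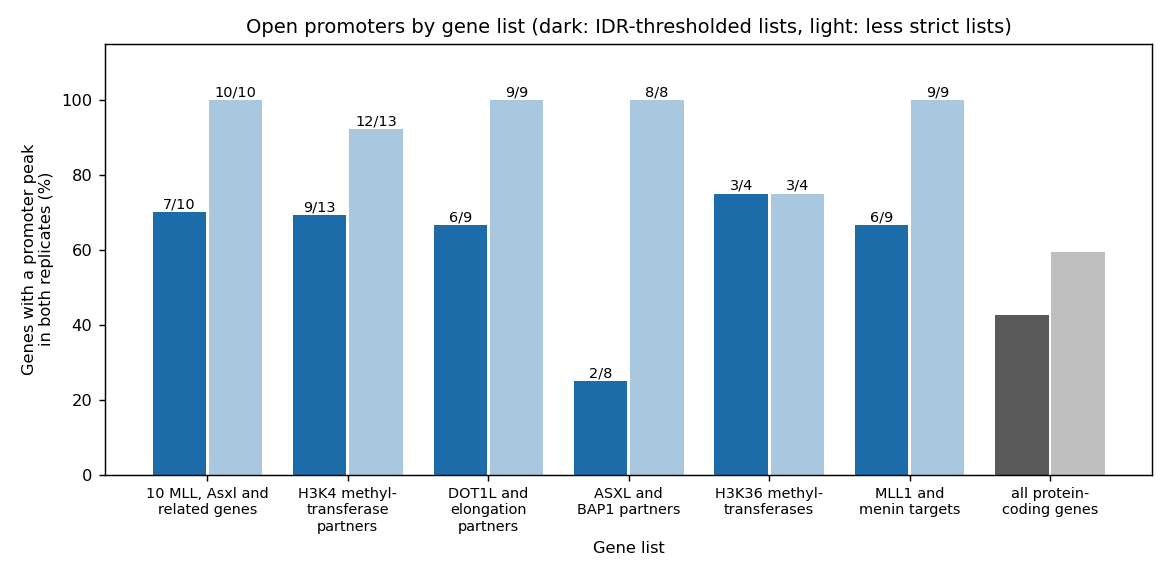
Share of genes with a promoter peak in both replicates, for the 10 genes, 5 lists of partners, relatives and targets, and all protein-coding genes, in the IDR-thresholded lists (dark bars) and the less strict lists (light bars), with counts above the bars. In the thresholded lists 7 of the 10 genes and 2 of the 8 ASXL and BAP1 partners were open, against 42.5% of all genes.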

How the data were processed

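Values came from peak lists in the mm10 assembly, per the labels and the file notes. Each line of the authors' deposited lists gives 1 summit, its signal value and its p-value and q-value on the -log10 scale, all from their peak caller. Per the deposited notes, a replicate's list was made from its own library and the conservative list from both. The aligner and caller, any Tn5 shift of read ends and any removal of mitochondrial reads were not given in the sources used here. An instrument pair is named for replicate 1 and none for replicate 2, so instrument and replicate cannot be told apart. With peak lists alone the depth of each library, and the precision it gives, is unknown.

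An interval listed with several summits entered once, at the strongest of them. Genes, TSSs and noncoding genes came from GENCODE release M21 (all annotated transcripts of protein-coding genes), sequence from RefSeq GRCm38.p6, whose chromosome lengths hold all peaks. Peaks overlapped at 1 bp or more. Coordinates are 1-based. Python 3.11.15, numpy 2.4.6 and pysam 0.24.0 were used. Promoter calls were tested on simulated peaks, and distal counts there to within 1 of the true count. The simulation used the same list for both replicates, so the rule for shared peaks was not tested. The single group of 2 replicates allows no test, so members are set beside all genes. The 10 genes and the lists were chosen with earlier results of these data known. All 10 members were named; of the 5 lists, each gene not open and the 3 strongest; of distal peaks, each member's strongest and all of the 3 members with most; as 5 members tied behind Kmt2d and Nsd1, all 11 are described. Of the HSC markers and the other open genes, some were named beyond that rule. Alternatives were other lists, windows, TSS sets, sharing rules and each replicate alone.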

Additional observations from a re-analysis of the deposited data

How the results depend on the processing

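The calls depended mainly on the peak list. The 7 open members became 2 with the 50% strongest thresholded peaks, while under the other settings the count was 6 to 10, and 7 to 10 with 1 replicate left out. Asxl1 and Kdm6a kept their call under all 11 alternatives, and Kmt2a, Kmt2c and Nsd1 became open with the less strict lists, the conservative list or without replicate 2. The median percentile over both replicates, 49, was 74.4 in the less strict lists and 80.9 among the 50% strongest, where other intervals are ranked, and 37.9 to 47.5 with 1 replicate left out. Of the 42 related genes, 26 open became 40 in the less strict lists and 11 among the 50% strongest, and 28 to 30 with 1 replicate. Over all genes 9329 became 5758 among the 50% strongest, and 9986 to 10364 with 1 replicate. The 11 distal peaks became 34 in the less strict lists, 28 in the conservative list, 3 among the 50% strongest, 6 within 20 kb and 2 inside genes only, as fewer peaks or less sequence is searched or more peaks are listed, and 13 to 16 with 1 replicate. No paired analysis was possible because the series holds 1 group. Read depth is unknown, and 2 replicates limit every comparison between them.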

Other observations

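Some genes near these pathways had distal peaks in both thresholded lists and weak or no promoter calls; they were chosen after their values were seen. Kdm6b, which had no promoter peak in any per-replicate list, had 4 shared distal peaks, more than any of the 10 genes. Mecom had 7 and no thresholded promoter peak. Runx1, whose product is a core stem cell transcription factor and a frequent target of leukemia mutations, also had 7, with promoter signals of 4.97 in replicate 1 (percentile 2.31) and 5.27 in replicate 2 (percentile 1.37). The H3K36 methyltransferase genes other than Nsd1 had 0 among the 4 of them, against 3 at Nsd1. Men1, Asxl1 and Kdm6a also had 0, and 45.6% of all protein-coding genes had at least 1. These counts were not adjusted for the searched span, and a longer span can hold more peaks.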
